A study of Mus musculus with 15 samples.

Results

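The 10 genes described here encode proteins that cut, pack or travel with peptide hormones in the secretory pathway of islet cells: the convertases Pcsk1 and Pcsk2, the carboxypeptidase Cpe, their binding partners Pcsk1n and Scg5, the granins Chga, Chgb, Scg2 and Scg3, and the carrier protein Ttr. They were found by gene symbol in tables of 23699 entries, and each symbol matched 1 entry with a usable value in every library. All 10 passed the filter on low values and are among the 11253 genes tested.

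RNA was sequenced from RFP+ cells sorted out of mouse islets, 8 libraries of ALDH- cells and 7 of ALDH+ cells. ALDH+ cells are those that trapped the fluorescent product of aldehyde dehydrogenase activity, and the study asked how such cells differ from their ALDH- neighbours and whether loss of Foxo matters to them. Control mice were triple heterozygous for Foxo1, Foxo3 and Foxo4 according to the labels, whereas the study's methods describe wild-type littermates. They gave 3 ALDH- and 2 ALDH+ libraries. Foxo knockout mice, lacking Foxo1, Foxo3 and Foxo4 where cre was active, gave 5 libraries of each population. All mice had a mixed 129J and C57BL/6 background, carried a cre driver and were marked by a Tomato reporter at Rosa26 that cre switches on. The methods give an age of 6 months and pooled islets from several mice of a genotype for the RIP-Cre mice. RIP-Cre, active in insulin-producing cells, was the driver in 9 libraries. Pdx-Cre, active in pancreatic precursors and therefore able to mark other islet and exocrine cells, was the driver in the other 6: the last control replicate of each population, and replicates 4 and 5 of the ALDH- and of the ALDH+ knockout cells. No run or sort date accompanied the labels, so the driver and any batch that followed it cannot be told apart.

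Insulin and the other islet hormones are made as longer precursors. PC1/3 (Pcsk1) and PC2 (Pcsk2) cut them after pairs of basic residues in the maturing granule, and carboxypeptidase E (Cpe) trims the exposed basic residues from the new ends. ProSAAS (Pcsk1n) binds and inhibits PC1/3, whereas 7B2 (Scg5) escorts proPC2 through the secretory pathway and keeps it inactive until the granule. Chromogranins and secretogranins are acidic, calcium-binding proteins that condense in the trans-Golgi and form much of the granule matrix, and several of them are themselves cut into peptides. Transthyretin (Ttr) carries thyroxine and retinol-binding protein, and is made by islet cells as well as by liver and choroid plexus.

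The labels could be checked on the genes they concern. Foxo1 read 12.0 to 20.1 FPKM (fragments per kilobase of transcript, scaled to the mapped fragments of the library) in the 5 control libraries and 0.0925 to 4.24 in the 10 knockout libraries. Foxo3 did not separate the genotypes, at 12.7 to 23.0 and 9.78 to 30.6 FPKM, and Foxo4 was at most 1.34 FPKM anywhere. Whether the Foxo3 reads lie outside the deleted part was not tested. Aldh1a3 read 0.49 to 4.09 FPKM in ALDH- libraries and 22.1 to 76.9 in ALDH+ libraries. Of the beta cell markers with usable values, Iapp and G6pc2 were high in every library and overlapped between drivers. Iapp read 33196 to 125094 FPKM in RIP-Cre and 69597 to 114338 in Pdx-Cre libraries, and G6pc2 read 1096 to 1878 and 313 to 1725. Slc2a2, the glucose transporter of beta cells, was at 99.95 to 227 FPKM in RIP-Cre and 8.61 to 24.6 in Pdx-Cre libraries, Ucn3 at 418 to 795 and 69.9 to 302, and the transcription factor Nkx6-1 at 57.2 to 97.1 and 25.8 to 41.1, each without overlap. Pdx1 (45.2 to 96.1 and 19.7 to 53.4 FPKM) and Mafa (2.32 to 13.9 and 0.434 to 2.51) overlapped slightly. Endothelial and stromal genes summed to at most 1.48 and 0.715 FPKM, and the leukocyte genes Ptprc and Emr1 were at or near 0, but the macrophage gene Cd68 read 19.0 to 37.7 FPKM in RIP-Cre and 34.4 to 148 in Pdx-Cre libraries. Among duct genes Spp1 read 100.5 to 697 FPKM over the 15 libraries, Krt19 at most 18.8 and Sox9 at most 0.494. Markers of other islet cells were not: the summed level of 5 alpha cell genes, nearly all of it Gcg, was 672 to 893 FPKM in the RIP-Cre ALDH- libraries but 9557 to 35850 in the 3 Pdx-Cre ALDH- libraries, against 157 to 1019 and 277 to 5830 FPKM in the RIP-Cre and Pdx-Cre ALDH+ libraries. Delta cell genes (Sst, Hhex) ran from 8255 to 13646 FPKM in the Pdx-Cre ALDH- libraries and from 414 to 2990 elsewhere, and the PP cell genes Ppy and Pyy summed to 2988 to 18184 against 318 to 4433 FPKM. Acinar genes summed to 387 to 1498 FPKM in 3 Pdx-Cre libraries (control ALDH+ replicate 2 and replicate 5 of both knockout populations) and to at most 9.06 in the other 12. Ins2 had no usable value in 3 RIP-Cre ALDH- libraries (control replicates 1 and 2, knockout replicate 2), where it was marked as too deep to estimate.

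The stretches of DNA just upstream of the genes are shown here for Chgb and Pcsk1n, the members that passed a test between conditions. Scg2 and Pcsk1 are shown because they share 1 element with Chgb. Promoters of 8 members were taken from RefSeq on GRCm38.p6, and the 250 bases before the transcript start were searched on both strands. Those of Cpe and Ttr were not searched, so nothing is said of their letters here. The palindromic cAMP response element TGACGTCA, in capitals below, was found in 3 of the 8 and in 1.55% of 32851 promoters of the same length. Its core TGACG, which the full element also contains, was found in 7 of the 8 (all but Pcsk1n) and in 17.8% of all promoters. The FoxO site GTAAACA was found in Pcsk1 alone among the 8 members searched, and in 3.17% of all promoters. The last 150 bases before the start are printed 5′ to 3′ on the strand of the gene, at chr2:132781492-132781641 (plus strand) for Chgb, chr1:79440027-79440176 (minus strand) for Scg2, chr13:75089707-75089856 (plus strand) for Pcsk1 and chrX:7919672-7919821 (plus strand) for Pcsk1n.
Chgb: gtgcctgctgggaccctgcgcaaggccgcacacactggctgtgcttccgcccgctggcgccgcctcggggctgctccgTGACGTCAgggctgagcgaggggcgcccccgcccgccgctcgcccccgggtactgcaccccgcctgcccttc
Scg2: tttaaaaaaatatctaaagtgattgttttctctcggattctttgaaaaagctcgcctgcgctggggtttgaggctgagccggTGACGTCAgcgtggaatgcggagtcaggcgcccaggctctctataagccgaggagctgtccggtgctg
Pcsk1: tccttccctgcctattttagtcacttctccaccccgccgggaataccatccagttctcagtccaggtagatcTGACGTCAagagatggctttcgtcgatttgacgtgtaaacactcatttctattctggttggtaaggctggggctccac
Pcsk1n: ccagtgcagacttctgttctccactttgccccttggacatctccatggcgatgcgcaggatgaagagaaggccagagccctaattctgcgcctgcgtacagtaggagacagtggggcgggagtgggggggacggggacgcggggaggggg
The element begins 72 bases before the start in Chgb, 68 before it in Scg2 and 78 before it in Pcsk1, and the FoxO letters of Pcsk1 begin 44 bases before it. The data hold no binding or chromatin measurement, and the matches are given as letters only.

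Granins were among the most abundant transcripts in these cells. By median FPKM over the 15 libraries the members ranked Scg2 (3373), Chgb (2066), Chga (1755), Scg3 (1452), Cpe (1305), Pcsk2 (597), Scg5 (525), Ttr (378), Pcsk1 (189) and Pcsk1n (52.8). FPKM is a value per transcript length, so that levels of different genes can be set side by side. In this order the ranges of Scg2, Chgb, Chga, Scg3 and Cpe overlapped from one to the next, as did those of Pcsk2, Scg5, Ttr and Pcsk1, whereas the lowest Cpe value (937) lay above the highest Pcsk2 value (717) and the highest Pcsk1n value (103) lay below the lowest Pcsk1 value (151). Scg2 held a median rank of 3 among all 22924 usable genes and Chga of 6, while Pcsk1n held 1200. Pcsk2 exceeded Pcsk1 in all 15 libraries, with a ratio of Pcsk1 to Pcsk2 between 0.229 and 0.451. The least variable members were Pcsk2, whose highest value was 1.64 times its lowest, and Pcsk1, at 1.67 times. Ttr varied most, by 8.98 times, and Chgb next, by 3.41 times.

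**Figure D1:**
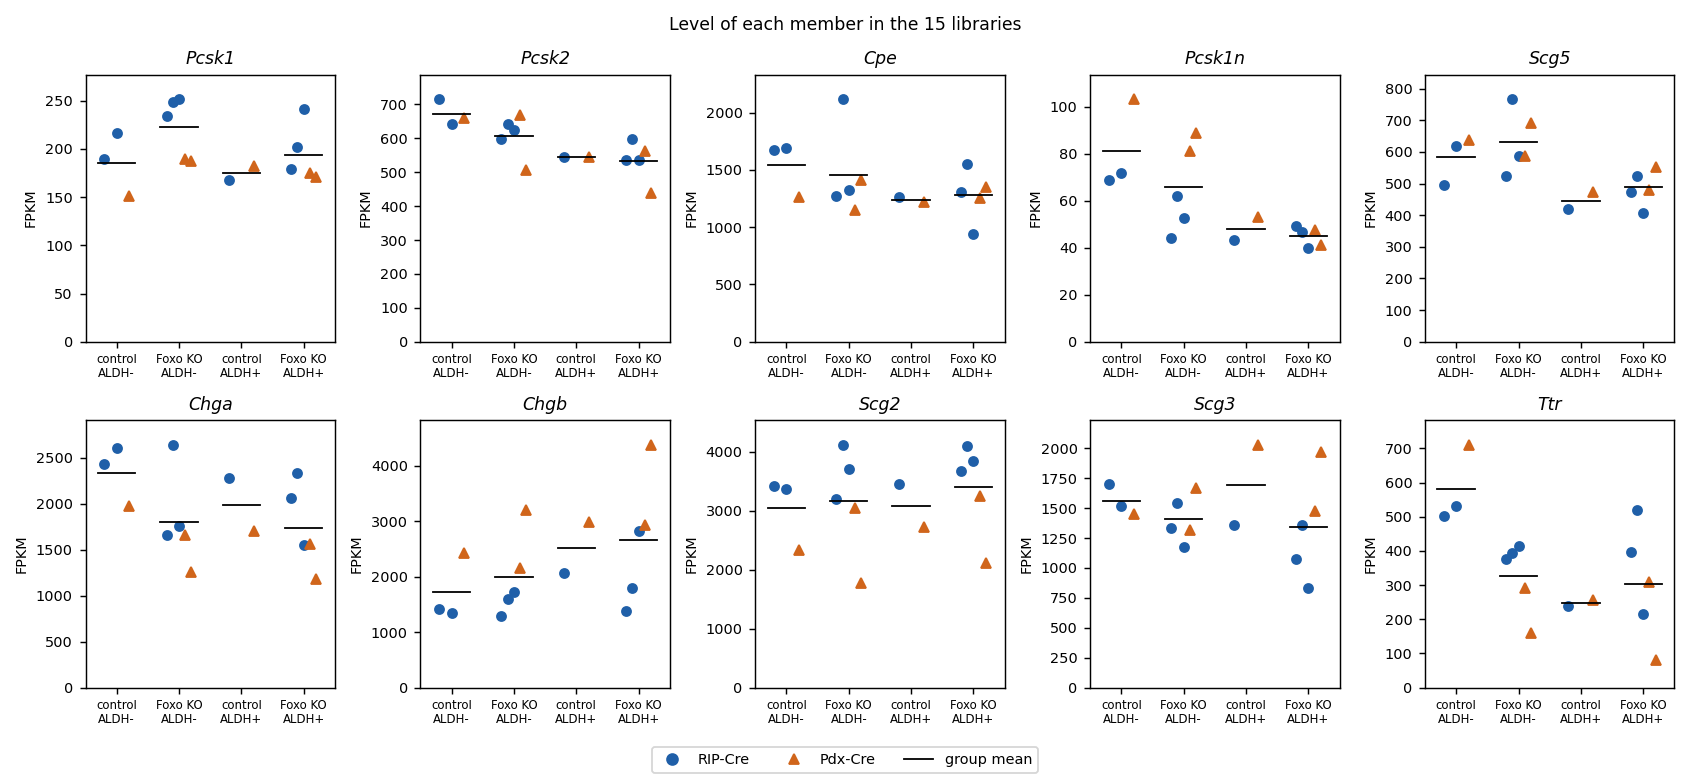
FPKM of the 10 genes (vertical axes, each from 0) in the 4 groups of libraries, with circles for RIP-Cre, triangles for Pdx-Cre and a bar at the group mean. Pcsk1n is highest in the Pdx-Cre ALDH- libraries (81.3 to 103 FPKM), Chgb is higher in Pdx-Cre than in RIP-Cre libraries within each ALDH population, and Ttr spreads from 79.2 to 711.

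To compare ALDH+ with ALDH- cells, log2(FPKM + 1) was fitted with limma over all 15 libraries, with terms for genotype, its interaction with ALDH, and cre driver, after rescaling each library. Values below are FPKM as deposited, and log2 differences are on the rescaled log2(FPKM + 1) scale. Only Pcsk1n passed the adjusted threshold of 0.05, in the direction of lower levels in ALDH+ cells: 1 of 10 members, where 5.99% of all tested genes passed in either direction and 3.77% passed as lower. At an unadjusted p under 0.05, 4 members were lower (Pcsk1n, Scg5, Pcsk2 and Ttr) and none was higher, against 20.8% of all genes in either direction and 11.9% lower. In all, 8 members had negative and 2 had positive estimates, with a median of -0.18, where the median of all genes was -0.02. No member's ALDH+ and ALDH- libraries were free of overlap, as those of 0.418% of tested genes were with ALDH+ higher and 0.293% with ALDH+ lower. The share of genes that separate within a single genotype was not counted. Fewer cells of a type and less RNA per cell cannot be told apart in such libraries.

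Among the processing enzymes, Pcsk2 stood at 717, 643 and 659.5 FPKM in control ALDH- replicates 1 to 3, and at 597, 641, 625, 669 and 507 in knockout ALDH- replicates 1 to 5. In ALDH+ cells it stood at 545 and 546 FPKM in the controls and at 535, 597, 536, 562 and 438 in the knockouts. Both control ALDH+ values lay below all 3 control ALDH- values, while the knockout populations overlapped. The fitted difference was -0.25 (SE 0.11), with a limma adjusted p of 0.20. Pcsk1 ranged from 151 to 252 FPKM in ALDH- and from 167 to 242 in ALDH+ cells, a difference of -0.12 (SE 0.11, adjusted p 0.57), whose 95% interval of -0.36 to 0.11 covers 0. Cpe read 1148 to 2120.4 FPKM in ALDH- and 937 to 1553 in ALDH+ cells, a difference of -0.23 (SE 0.17, adjusted p 0.47).

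Cpe and Chga shared a feature of the libraries. Their 3 highest values fell in the same 3 RIP-Cre ALDH- libraries, those in which Ins2 was marked as too deep: 1673 to 2120.4 FPKM for Cpe, against at most 1553 in the other 12, and 2426 to 2642 for Chga, against at most 2331. Without these 3 libraries the ALDH difference of Cpe was -0.07 (limma adjusted p 0.92) and that of Chga -0.12 (adjusted p 0.87). The part of the missing Ins2 estimate in these values was not tested.

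The partners of the convertases, Pcsk1n and Scg5, had the smallest p-values of the set in the ALDH comparison. Pcsk1n read 68.9, 71.6 and 103 FPKM in control ALDH- replicates 1 to 3 and 44.1, 61.9, 52.8, 81.3 and 88.8 in knockout ALDH- replicates 1 to 5. It read 43.2 and 53.2 FPKM in control ALDH+ cells and 49.1, 46.7, 40.0, 47.7 and 41.4 in knockout ALDH+ cells. In the controls both ALDH+ values lay below all ALDH- values, and in the knockouts 4 of the 5 ALDH- values lay above all 5 ALDH+ values, replicate 1 (44.1) being the exception. Group means were 81.3 ± 19.2 FPKM (SD, n = 3) and 65.8 ± 18.9 (n = 5) in control and knockout ALDH- cells, and 48.2 ± 7.06 (n = 2) and 45.0 ± 4.04 (n = 5) in ALDH+ cells. Pcsk1n fell by 0.65 on the log2 scale (SE 0.14, limma adjusted p 0.0136), to 0.636 times the ALDH- level, with a 95% interval of 0.516 to 0.782.

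The difference was estimated within each driver as well. Within RIP-Cre libraries it was -0.44 (limma adjusted p 0.20), from ALDH- values of 44.1 to 71.6 FPKM and ALDH+ values of 40.0 to 49.1. Within Pdx-Cre libraries it was -0.99 (adjusted p 0.75 with 6 libraries), from 81.3 to 103 and 41.4 to 53.2 FPKM, and the test of the difference between drivers gave -0.62 (SE 0.23, p 0.016 unadjusted, adjusted p 0.99). The 3 Pdx-Cre ALDH- libraries, which held the highest Pcsk1n values, were also the 3 with the highest sums of alpha and of delta cell genes. Pcsk1n stayed lower in ALDH+ cells but missed the threshold without control ALDH- replicate 3 (-0.58, adjusted p 0.052), without control ALDH+ replicate 1 (-0.68, adjusted p 0.12) or without control ALDH+ replicate 2 (-0.63, adjusted p 0.053). It also missed the threshold without the 3 libraries with acinar transcripts (-0.55, adjusted p 0.084) and without the 3 libraries in which Ins2 was too deep (-0.75, adjusted p 0.16). With no driver term the value was -0.62 (adjusted p 0.089), and with the replicate number as a block it was -0.50 (adjusted p 0.18), or -0.67 (adjusted p 0.0655) with the block within each driver. The part of other islet cells in this difference was not tested.

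**Figure D2:**
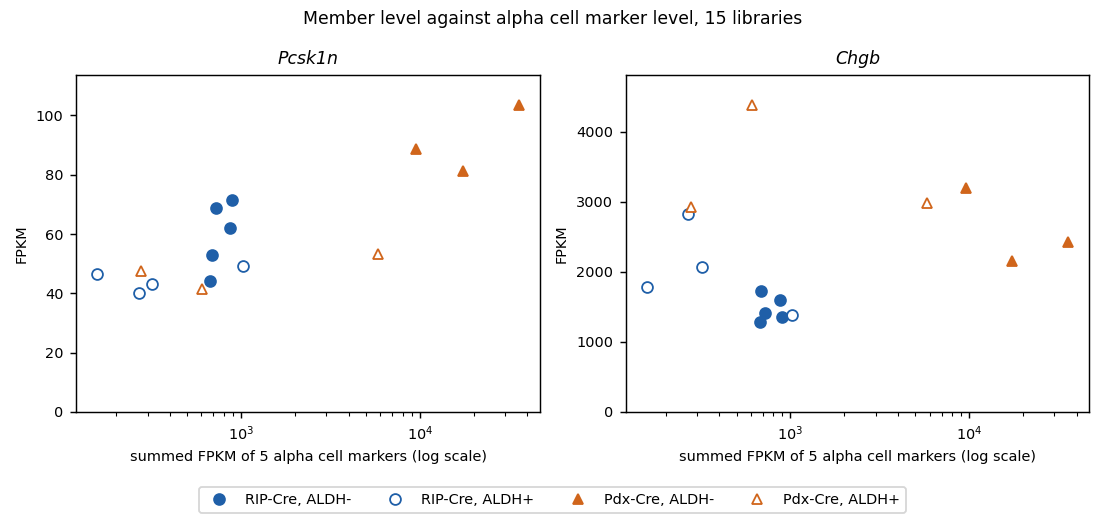
FPKM of Pcsk1n (left) and Chgb (right) on the vertical axis against the summed FPKM of 5 alpha cell genes on a log axis, 1 point per library, with circles for RIP-Cre, triangles for Pdx-Cre, filled points for ALDH- and open points for ALDH+. The 3 Pdx-Cre ALDH- libraries lie at the far right, at 9557 FPKM and above, and hold the 3 highest Pcsk1n values, whereas the highest Chgb value (4381) lies in a Pdx-Cre ALDH+ library with 606 FPKM of alpha cell genes.

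Scg5 read 496, 619.8 and 636 FPKM in control ALDH- and 523, 768, 588, 586 and 691 in knockout ALDH- cells. In ALDH+ cells it read 418 and 472 FPKM in the controls and 474, 525, 406, 481 and 552 in the knockouts. The control populations did not overlap and the knockout populations did, through replicates 2 and 5 of the ALDH+ cells. The estimate of -0.40 (SE 0.13, limma adjusted p 0.087) did not pass the threshold, and it was close to this value within RIP-Cre libraries (-0.40, adjusted p 0.31) and within Pdx-Cre libraries (-0.42, adjusted p 0.86). The ratio of Scg5 to its partner Pcsk2 ran from 0.692 to 1.36 in ALDH- and from 0.756 to 1.26 in ALDH+ libraries.

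None of the 4 granins passed the ALDH comparison. The study's own test, on counts from wild-type cells alone, listed Chgb as higher and Cpe and Ttr as lower in ALDH+ cells. Its measure and set of libraries differ from those used here. Chgb read 1410.2, 1349.8 and 2423 FPKM in control ALDH- and 1285, 1594, 1723, 2162 and 3196 in knockout ALDH- cells, and 2066 and 2981 FPKM in control ALDH+ and 1379, 1791, 2829, 2934 and 4381 in knockout ALDH+ cells. Both populations spanned a wide range and overlapped in each genotype. The estimate was positive, 0.40 (SE 0.19), but did not pass (limma adjusted p 0.25). Scg2, the most abundant member, was at 1778 to 4117 FPKM in ALDH- and 2116 to 4101 in ALDH+ cells, a difference of 0.11 (SE 0.16, adjusted p 0.77). Chga (1257 to 2642 and 1185 to 2331 FPKM) and Scg3 (1175 to 1702 and 834 to 2031 FPKM) gave -0.11 (SE 0.16, adjusted p 0.75) and -0.05 (SE 0.17, adjusted p 0.91). For these granins the 95% intervals reached from -0.24 to 0.46 (Scg2), -0.45 to 0.23 (Chga) and -0.40 to 0.31 (Scg3), so that differences of this size remain possible.

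Ttr had the largest estimate of the set and the largest spread. It read 503, 531 and 711 FPKM in control ALDH- cells and 239 and 255 in control ALDH+ cells. In knockouts it read 378, 393, 413, 291 and 159.8 FPKM in ALDH- cells and 396, 520.3, 216, 308 and 79.2 in ALDH+ cells. All 3 control ALDH- values lay above both control ALDH+ values, while the knockout populations overlapped over most of their range, with the lowest value of each in Pdx-Cre replicate 5, a library with acinar transcripts. Averaged over genotypes the difference was -0.71 (SE 0.31, limma adjusted p 0.21). It was -1.15 (SE 0.52, adjusted p 0.32) in the controls and -0.26 (SE 0.36, adjusted p 0.80) in the knockouts, and the test of that difference gave 0.89 (SE 0.63, p 0.18 unadjusted, limma adjusted p 0.998).

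**Figure D3:**
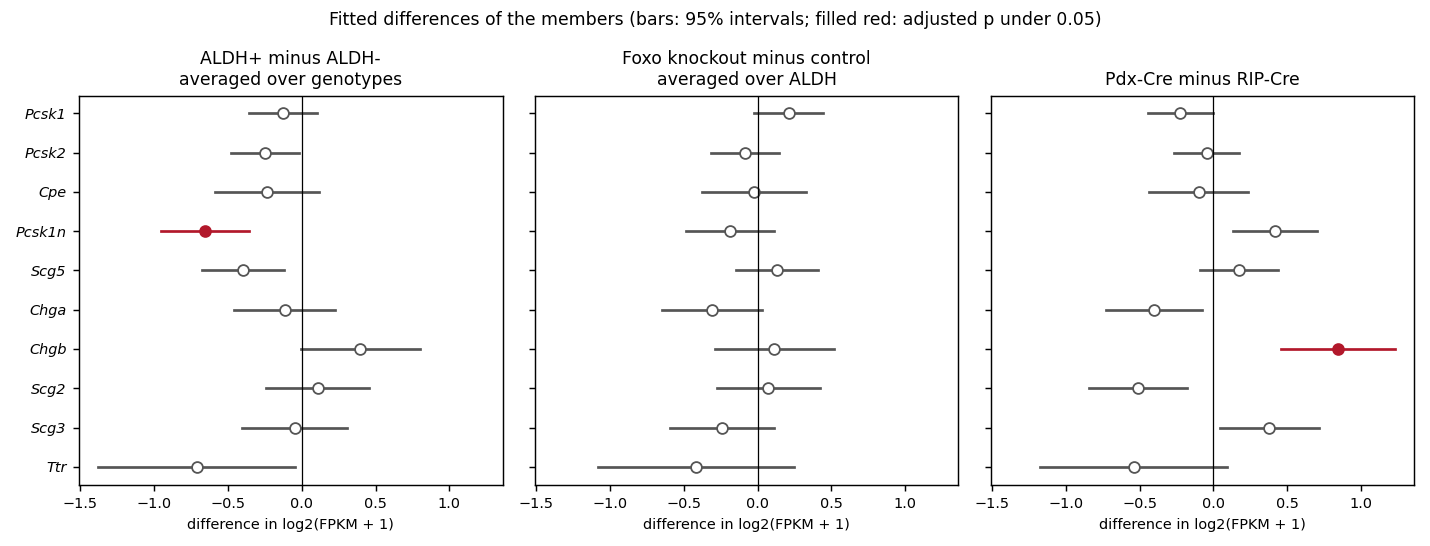
Fitted differences of the 10 genes in log2(FPKM + 1) with 95% intervals (horizontal axis), for ALDH+ against ALDH- cells, Foxo knockout against control and Pdx-Cre against RIP-Cre libraries. Filled red points have an adjusted p under 0.05: Pcsk1n in the ALDH comparison (-0.65) and Chgb in the driver comparison (0.84), with none in the genotype comparison.

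Loss of Foxo was compared over both ALDH populations in the same fit. None of the 10 members passed the adjusted threshold, as 0.116% of all genes did (13 genes), and none reached an unadjusted p under 0.05, as 7.71% did. Estimates ran from -0.42 (SE 0.31, Ttr) to 0.21 (SE 0.11, Pcsk1), with 6 negative and 4 positive, and every limma adjusted p was 0.706 or higher. Pcsk1 was the only searched member with the FoxO letters upstream. It read 190.0, 216 and 151 FPKM in control ALDH- and 234, 248, 252, 189 and 188 in knockout ALDH- cells. In ALDH+ cells it read 167 and 182 in the controls and 179, 202, 242, 175 and 171 in the knockouts. The genotypes overlapped in both populations, and the 95% interval of the difference was -0.02 to 0.44. The interval for Chga, whose unadjusted p of 0.0718 was the smallest and all but equal to that of Pcsk1 (0.0719), was -0.65 to 0.03. For Ttr in ALDH- cells alone, the 3 control values (503 to 711 FPKM) lay above all 5 knockout values (159.8 to 413), but in ALDH+ cells the 2 control values lay inside the knockout range. The share of all genes whose genotypes separate within 1 ALDH population was not counted. The Ttr estimate was 0.14 among the RIP-Cre libraries and -1.27 among those of Pdx-Cre, neither past the threshold (limma adjusted p 0.92 and 0.999). No gene of the whole table passed the genotype by ALDH interaction (0% at the adjusted threshold, 4.23% at an unadjusted p under 0.05), and no member reached an unadjusted p under 0.05 there.

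The cre driver was compared in the same fit, over both genotypes and ALDH populations. Chgb was the only member past the adjusted threshold: it rose by 0.84 (SE 0.18, limma adjusted p 0.0086) in Pdx-Cre over RIP-Cre libraries, with a 95% interval of 1.38 to 2.34 times. In ALDH- cells its 5 RIP-Cre values (1285 to 1723 FPKM) lay below its 3 Pdx-Cre values (2162 to 3196), and in ALDH+ cells its 4 RIP-Cre values (1379 to 2829) lay below its 3 Pdx-Cre values (2934 to 4381). Over all genes 9.73% passed, 5.68% as higher and 4.05% as lower. No member's 6 Pdx-Cre libraries were clear of the 9 RIP-Cre libraries when both ALDH populations were pooled, as those of 1.03% of genes were above and 0.906% below. The share of genes whose drivers separate within each ALDH population was not counted. At an unadjusted p under 0.05 there were 6 members, 3 higher (Chgb, Pcsk1n, Scg3) and 3 lower (Scg2, Chga, Pcsk1), where 25.7% of all genes reached it, 13.7% as higher and 12.1% as lower. The call on Chgb was lost without the filter on low values (0.84, adjusted p 0.63). Leaving out the 3 libraries with acinar transcripts brought Chgb to 0.67 (adjusted p 0.18), and leaving out the 3 libraries in which Ins2 was too deep brought it to 0.83 (adjusted p 0.079). The part of exocrine and other islet cells in the Chgb difference was not tested.

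Scg2, which carries the same cAMP response element as Chgb, had an estimate of the opposite sign. In RIP-Cre libraries Scg2 was at 3192 to 4117 FPKM in ALDH- and 3449.8 to 4101 in ALDH+ cells. In Pdx-Cre libraries it was at 1778 to 3045 and 2116 to 3247 FPKM. The ranges of the drivers did not overlap within either ALDH population, a separation that was not counted over all genes. The difference of -0.51 (SE 0.16) narrowly missed the threshold (limma adjusted p 0.0515), and it passed without rescaling (-0.56, adjusted p 0.037). Over 7 changed settings, the fit without rescaling among them, it ran from -0.56 to -0.31 and passed in 2. With 1 library left out it ran from -0.57 to -0.42 and passed in 2 of 15 fits. The lowest Scg2 value of each ALDH population (1778 and 2116 FPKM) lay in knockout replicate 5, a library with acinar transcripts. Pcsk1, with the same element, gave -0.22 (SE 0.10, adjusted p 0.19). The part of the element in these differences was not tested. Chga gave -0.40 (SE 0.15, adjusted p 0.11), Scg3 0.38 (SE 0.16, adjusted p 0.14) and Pcsk1n 0.42 (SE 0.13, adjusted p 0.062), and the other 4 members had an adjusted p of 0.276 or higher.

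Because both granins are measured in the same library, the ratio of Chgb to Chga does not depend on how libraries are scaled. It was 0.517 to 0.982 in the 5 RIP-Cre ALDH- libraries, 0.668 to 1.83 in the 4 RIP-Cre ALDH+ libraries, 1.23 to 2.54 in the 3 Pdx-Cre ALDH- libraries and 1.75 to 3.70 in the 3 Pdx-Cre ALDH+ libraries. Chga was the more abundant chromogranin in every RIP-Cre ALDH- library and Chgb in every Pdx-Cre library. The ratio of Pcsk1n to Pcsk1, an inhibitor to its enzyme, was 0.430 to 0.685 in the 3 Pdx-Cre ALDH- libraries and 0.165 to 0.362 in the other 12. Scg3 to Chga was 0.521 to 0.801 in RIP-Cre libraries and 0.737 to 1.66 in Pdx-Cre libraries. These ratios are descriptions without a test. The difference of the ALDH effect between drivers was tested for each gene, and no gene passed it (0% adjusted, 4.54% unadjusted), Pcsk1n being the 1 member with an unadjusted p under 0.05.

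**Figure D4:**
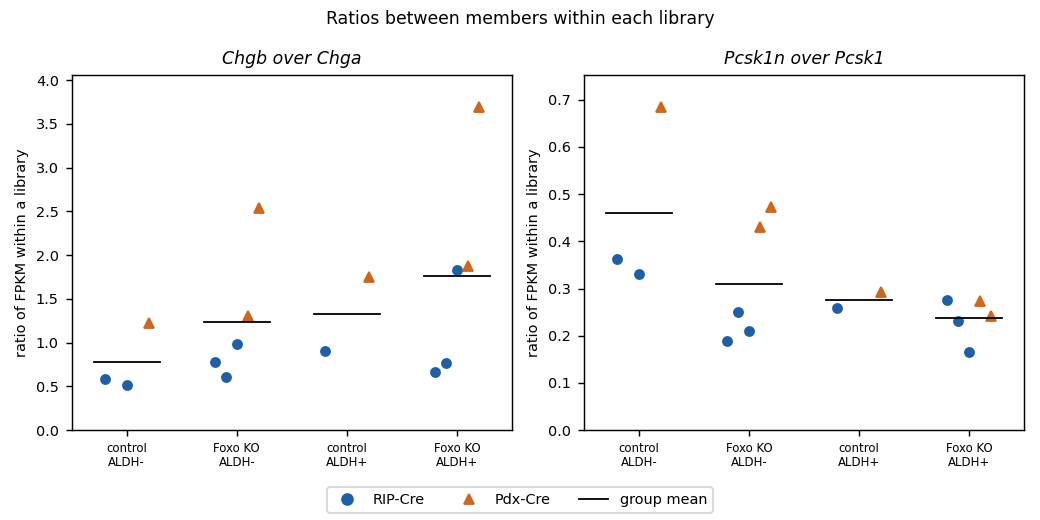
Ratio of Chgb to Chga (left) and of Pcsk1n to Pcsk1 (right) within each library, in the 4 groups, with circles for RIP-Cre, triangles for Pdx-Cre and bars at group means. Every Pdx-Cre library has a Chgb to Chga ratio above 1, from 1.23 to 3.70, and the 3 Pdx-Cre ALDH- libraries hold the highest Pcsk1n to Pcsk1 ratios, 0.430 to 0.685.

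Other enzymes that work on secreted proteins were followed as a list of 19, of which 16 were tested. In ALDH+ cells 1 of the 16 rose and none fell, a share near the 5.99% of all genes that passed in either direction, with a list median of -0.20 beside -0.02 for all genes. The gene that rose was Pcsk4, a convertase best known from germ cells, by 1.34 (SE 0.37, limma adjusted p 0.042), from 1.01 to 13.5 FPKM in ALDH- to 4.05 to 17.7 in ALDH+ libraries, which is low beside Pcsk1 and Pcsk2. The test of its ALDH difference between genotypes gave -1.70 (SE 0.74, p 0.035 unadjusted, limma adjusted p 0.998). Between drivers that test gave -1.66 (SE 0.59, p 0.013 unadjusted, adjusted p 0.99). Of 20 other cargo and membrane proteins of the granule, all tested, 2 fell and none rose, where 3.77% of all genes passed as lower and 5.99% in either direction, with a median of -0.04. Atp6ap1, an accessory subunit of the proton pump that acidifies granules, fell by 0.42 (SE 0.11, adjusted p 0.033), from a range of 179.7 to 259 FPKM to one of 149 to 203. Tmem27 (collectrin), a membrane protein of beta cells, fell by 0.40 (SE 0.11, adjusted p 0.038), from 285 to 402 FPKM in ALDH- to 248 to 304 in ALDH+ libraries. Of 8 partners of transthyretin in thyroxine and retinol transport, 5 were tested and none passed. Rbp4, the retinol-binding protein carried by Ttr, had the largest estimate, -1.11 (SE 0.50, adjusted p 0.22), followed by the thyroid hormone receptor Thrb at 0.35 (SE 0.17, adjusted p 0.25). For Rbp4 the test of the difference in ALDH effect between drivers gave -2.95 (SE 0.63, p 0.00028 unadjusted, limma adjusted p 0.46). In the genotype comparison no gene of the 3 lists passed.

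Between drivers, where 9.73% of all genes passed, 4 of the 16 enzymes, 3 of the 20 granule proteins and 1 of the 5 transthyretin partners did. The genes named here were picked after their values were seen. Pam, which amidates peptide hormones, rose by 0.95 (SE 0.13, limma adjusted p 0.00039), from 124 to 249 FPKM in RIP-Cre to 267 to 435 in Pdx-Cre libraries. P4hb, protein disulphide isomerase, rose by 0.69 (SE 0.10), from 278 to 403 to 478 to 609 FPKM, and the lysosomal protease Ctsl rose by 1.00 (SE 0.22). Ero1lb, the oxidase that supplies disulphide bonds for proinsulin folding, fell by 0.60 (SE 0.13), from 363 to 509.7 to 187 to 313 FPKM. Among granule proteins Rab27a rose by 0.51 (SE 0.15), while 2 fell: the zinc transporter Slc30a8, by 1.66 (SE 0.23), from 159 to 272 FPKM in RIP-Cre to 28.8 to 100.4 in Pdx-Cre libraries, and Sytl4 (granuphilin), a docking protein of insulin granules, by 1.24 (SE 0.15), from 58.8 to 109.8 to 26.1 to 44.6 FPKM. Rbp4 rose by 1.90 (SE 0.48, adjusted p 0.020), with overlapping ranges of 13.2 to 39.3 FPKM in RIP-Cre and 15.7 to 383 in Pdx-Cre libraries. Pam, P4hb, Ero1lb, Slc30a8 and Sytl4 did not overlap between drivers, and each gene named so far had a limma adjusted p of 0.0433 or lower. The granule protein Ptprn2 did not pass (-0.26, SE 0.092, adjusted p 0.092) but was also free of overlap, lower in Pdx-Cre libraries. Over all tested genes, 1.03% were free of overlap with Pdx-Cre higher and 0.906% with Pdx-Cre lower. Driver and batch cannot be told apart here. The beta cell markers Slc2a2, Ucn3 and Nkx6-1 were lower in every Pdx-Cre library than in any RIP-Cre library. Iapp, G6pc2, Pdx1 and Mafa overlapped between drivers. Alpha and delta cell genes were highest in the Pdx-Cre ALDH- libraries. PP cell genes overlapped, at 2988 to 18184 FPKM in those libraries and up to 4433 in a Pdx-Cre ALDH+ library. Acinar genes were high in 3 Pdx-Cre libraries, as given above. The part of these cell types in the differences between drivers was not tested.

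**Figure D5:**
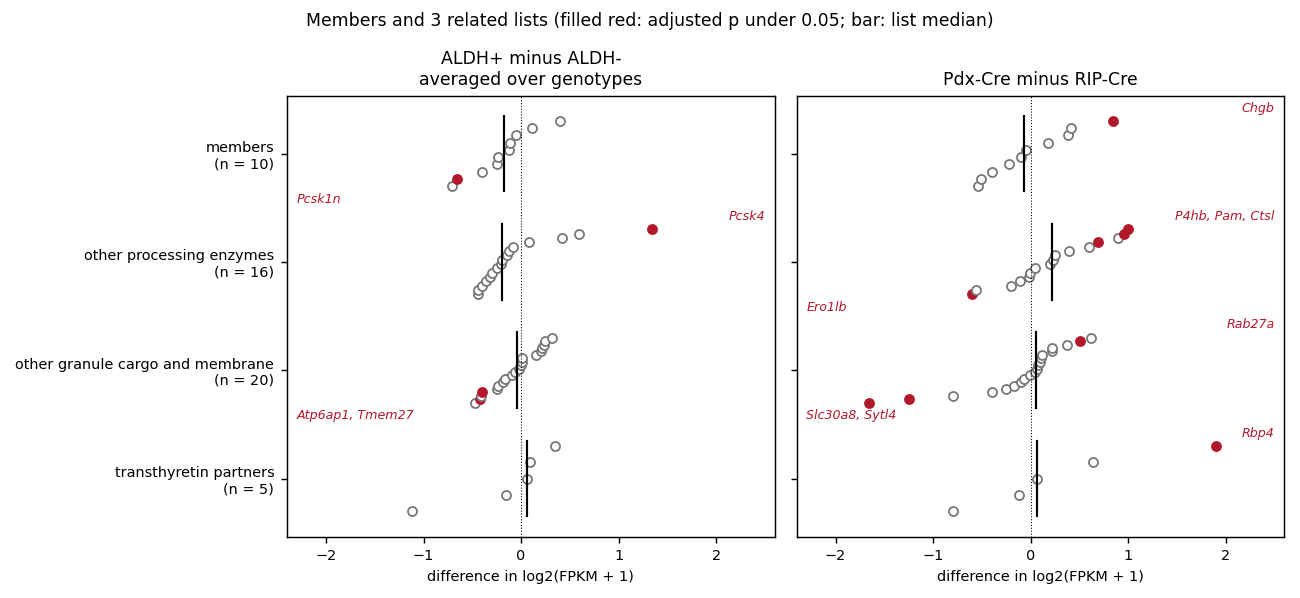
Differences in log2(FPKM + 1) (horizontal axis) of the 10 members and of the tested genes of 3 related lists, 1 point per gene, with a bar at each list's median, for ALDH+ against ALDH- cells (left) and Pdx-Cre against RIP-Cre libraries (right). Genes with an adjusted p under 0.05 are filled red and named at the side toward which they lie: 4 on the left (Pcsk1n, Pcsk4, Atp6ap1, Tmem27) and 9 on the right.

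For each member the genes with the most similar course over the 15 libraries were sought among all tested genes, by the root mean square of the difference between mean-centred log2 profiles. Smaller values are closer, and each member's own root mean square around its mean gives the scale. Scg5 had the closest match, Lamp2, a lysosomal membrane protein, at 0.10 against a spread of 0.27. Cpe was followed by Rbbp7 at 0.12 and by the endoplasmic reticulum isomerase Pdia3 at 0.13, against 0.27. The profile nearest to Ttr was that of G6pc2, the islet glucose-6-phosphatase, at 0.40 against 0.76. Chgb was nearest to H13, a signal peptide peptidase, at 0.20 against 0.55, with the cystine transporter Slc7a11 next at 0.21. Pcsk1n was nearest to Tspan7 at 0.20 against 0.43, Scg2 to Tmem65 at 0.14 against 0.32, Scg3 to Grpel1 at 0.17 against 0.32 and Chga to Cyfip2 at 0.17 against 0.33. Pcsk2 (Parp1, 0.13 against 0.17) and Pcsk1 (Slc7a14, 0.14 against 0.21) varied little, so that a match says less for them. No member was among the 3 genes nearest to another member.

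In the tables, which use mm9, the members lie at chr13:75227434-75269946 (Pcsk1), chr2:143371868-143642018 (Pcsk2), chr8:67071348-67171837 (Cpe), chrX:7496947-7501536 (Pcsk1n), chr2:113616469-113669248 (Scg5), chr12:103793178-103803237 (Chga), chr2:132607013-132620808 (Chgb), chr1:79431243-79436665 (Scg2), chr9:75491172-75531863 (Scg3) and chr18:20823750-20832827 (Ttr). These are whole gene spans as the tables write them, and Scg5, Chgb and Pcsk2 share a chromosome but are separate loci. Behind each value stood at least 725 fragments (Pcsk1n) and up to 116937 (Chgb), as worked out from the width of the deposited intervals, so that counting error was small beside the spread between libraries.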

How the data were processed

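Sorted RFP+ islet cells were profiled by poly-A RNA sequencing (TruSeq) in 15 libraries. Processing notes of the submitters name bcl2fastq 1.8.4, TopHat2 2.0.4 and mm9; the quantifier's version and annotation are not given in the sources used here. The authors deposited 1 table of FPKM per library, with interval bounds, in the layout of Cufflinks, and tested counts that are not in these columns. Symbols listed more than once (248) and lines with failed or too-deep values (63) were left out, leaving 22924 genes, among them no Ins1 or Ins2. Summed fragments, inferred from interval widths, were 7492010 to 10057827 per library. A count test had been considered, but FPKM required limma 3.58.1 (R 4.3.3): trimmed-mean rescaling (factors 0.918 to 1.05), pseudocount 1, mean rescaled FPKM of at least 1, a trend in the prior variance, and terms for ALDH, genotype, their interaction and cre driver. Tests were two-sided, with Benjamini-Hochberg adjustment over all genes. Fold changes on the log2(FPKM + 1) scale understate changes of low genes. Members and lists were chosen with earlier results of these data known. From the lists, genes past the threshold in the ALDH comparison were named, or up to 2 with the largest differences where none passed. The procedure was tested on simulated data with known changes between ALDH populations and independent noise for each gene and library. No difference between drivers or in cell mix was simulated, so that test does not bear on them. Nothing in the labels ties a library to separate animals, so p-values measure the spread between libraries, which may be technical. Replicates of a group correlated at 0.936 to 0.982.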

Additional observations from a re-analysis of the deposited data

Results flagged for a closer look

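In the groups of 5 libraries, 1 member value stood apart from the other 4 by more than Dixon's 95% critical value of 0.71 for the gap divided by the range, out of 20 combinations of member and group examined. About 1 in 20 groups is expected to pass that limit by chance. Cpe read 2120.4 FPKM in Foxo knockout ALDH- replicate 2, where the other 4 libraries of the group lay between 1148 and 1412. That library is 1 of the 3 in which Ins2 was marked as too deep, and its part in the value was not tested.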

How the results depend on the processing

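Over all 11253 genes the ALDH comparison passed 674. The members' single call there (Pcsk1n) was lost when some single libraries were left out. The single call in the driver comparison (Chgb) was not, its estimate running from 0.76 to 0.94 with 1 library left out. The Chgb call was lost without the filter on low values and without either set of 3 libraries given below. In the ALDH comparison the count of genes was 332 with no filter on low values, 185 with no driver term, 184 after removing a trend with transcript length, 156 in RIP-Cre libraries alone, 4 in Pdx-Cre libraries alone, 405 without the 3 libraries with acinar transcripts and 2 without the 3 in which Ins2 was too deep. The number of members called was 0 under no driver term, either driver alone, either set of 3 libraries left out, and both fits with a replicate block. The genotype count, 13 genes, was 47 with no filter, 6 with no driver term, 0 in Pdx-Cre libraries, 5 without the acinar libraries and 4 without the too-deep libraries. The driver count, 1095 genes, was 629 with no filter, 132 without the acinar libraries and 385 without the too-deep libraries, and the members called were 0 in these 3 cases, 2 without rescaling (Chgb, Scg2) and 3 after the length correction (Chgb, Scg2, Chga). For the genotype by ALDH interaction, with 0 genes, the counts were 26 with no filter, 3 in RIP-Cre libraries, 2 without the acinar and 1 without the too-deep libraries. For the driver by ALDH interaction, also with 0 genes, they were 3, 4 and 2 with no filter, without the acinar and without the too-deep libraries. The cause of these shifts was not tested. The restriction to Pdx-Cre libraries and both sets of 3 libraries were chosen after seeing the data.

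Leaving out 1 library at a time gave 3 to 831 genes for ALDH (3 without control ALDH+ replicate 1) and 0 to 1 members (0 without control ALDH- replicate 3 or either control ALDH+ library), 1 to 15 genes for genotype (1 without control ALDH+ replicate 2), 697 to 1266 genes and 1 to 2 members for driver, and 0 to 3 and 0 to 2 genes for the genotype and driver interactions. The second member in the driver comparison was Scg2 without knockout replicate 4 of either population, and Pcsk1n without knockout ALDH+ replicate 1 or 5. With 1 control ALDH+ library left out, the other is assumed to vary like the remaining groups.

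Estimates that changed sign were not past the threshold in either form. In RIP-Cre libraries the genotype difference was 0.000473 for Pcsk2 and 0.14 for Ttr, which was -0.42 over all libraries and -1.27 in Pdx-Cre libraries. In Pdx-Cre libraries the ALDH difference was 0.0206 for Pcsk1 and 0.29 for Scg3, and the genotype difference was -0.0835 for Scg2. With the length correction, Scg3 was 0.00442 for ALDH and Pcsk2 0.0532 for driver. Without the acinar libraries Chgb was -0.0206 for genotype and Pcsk2 0.0611 for driver. Without the too-deep libraries Scg3 was 0.15 for ALDH, Scg2 -0.00584 for genotype and Cpe 0.0388 for driver. With 1 library left out, Scg3 ran from -0.12 to 0.0278 for ALDH, Cpe from -0.0988 to 0.0353 for genotype and Pcsk2 from -0.0888 to 0.0124 for driver.

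Groups share replicate numbers, but nothing in the labels says that a number marks a shared animal or day. Same-numbered libraries correlated at 0.0917 to 0.406 in knockouts and at 0.24 and -0.24 in controls. Every knockout library but ALDH+ replicate 3 correlated best with its own number. With the driver also taken out, same-numbered knockout libraries correlated at -0.04 to 0.07. Knockout libraries of the same driver but unlike number lay lower, at -0.29 to -0.06, and those of unlike drivers at 0.03 to 0.14. Whether libraries pair by number was therefore not settled. With a replicate block the ALDH comparison passed 22 genes, with a replicate block within each driver 262, and Pcsk1n was -0.50 (limma adjusted p 0.18) and -0.67 (adjusted p 0.0655). The second of these fits gave 1 gene for the driver by ALDH interaction. Genotype and driver comparisons have no value under the block, and driver comparisons none without the driver term or within 1 driver.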
